A study of Mus musculus with 12 samples.

Results

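RNA labelled as hippocampal was compared between mice given low-dose PQQ and mice given normal saline. PQQ is pyrroloquinoline quinone, a redox cofactor first known from bacterial enzymes. The comparison rests on 8 of the 12 RNA-seq libraries of the series, chosen by their treatment labels alone, of which 5 are called PQQ-L (a daily dose of 5 mg/kg) and 3 are called CON (saline, no PQQ). By its label, every library came from wild-type hippocampus. The mice were naturally aged male C57BL/6J, 20 months old and gavaged for 14 days, and no young animals enter the comparison. The study assigned 6 mice to each group, and the labels do not say which mouse gave which library or whether libraries of 1 group came from separate animals, so the p-values measure the spread between libraries only. The 4 libraries of mice given 10 mg/kg daily (PQQ-H) enter the fit for that spread and for nothing else. The measurement is FPKM, the fragments counted on a gene, scaled to its length and to the depth of the library, as deposited by the authors. Of 27833 genes in the table, the 13807 with a mean FPKM of at least 0.5 over the 8 libraries were tested. Between 29654553 and 35517505 reads lay on genes in the CON libraries and between 34129850 and 38179496 in the PQQ-L libraries.

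The hippocampus is built from pyramidal neurons of the CA fields and granule neurons of the dentate gyrus, with astrocytes, oligodendrocytes, microglia and vessels around them. Along the lateral ventricle it borders on the choroid plexus, an epithelium on a fibrous and vascular core that secretes cerebrospinal fluid and makes large amounts of transthyretin. Ependymal cells with motile cilia line the same ventricle, and the septum, striatum and thalamus lie close by.

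The labelled tissue was checked first, because 2 of the 3 CON libraries went against it. Prox1, the transcription factor of dentate granule neurons, was at an FPKM of 1.50, 9.69 and 2.64 in CON 1, CON 2 and CON 3, and at 7.63, 9.90, 4.41, 7.09 and 10.8 in PQQ-L 1 to 5. C1ql2, a secreted synaptic protein of granule neurons, was at 0.183, 36.8 and 5.29 in the CON libraries and at 14.5 to 50.5 in PQQ-L. Fibcd1, a marker of CA1 neurons, was at 0.744, 18.7 and 2.30 and 12.2 to 26.1, and Spink8, another CA1 marker, at 0.0695, 24.6 and 2.25 and 7.97 to 37. For these 4 genes CON 1 was the lowest of the 8 libraries, CON 3 was the next lowest, and CON 2 lay inside the PQQ-L range. Genes of striatal projection neurons showed the opposite order. Drd1, the D1 dopamine receptor, was at 81.3, 1.34 and 33.6 in the CON libraries and at 0.785 to 4.73 in PQQ-L, and Ppp1r1b, which encodes the dopamine-regulated phosphatase inhibitor DARPP-32, was at 1235, 25.5 and 522 and 18.8 to 57.9. The summed FPKM of a list of 27 striatal genes was 5180 in CON 1, 188 in CON 2 and 2188 in CON 3, against 166.5 to 373 in PQQ-L. The library labelled CON 1, and to a smaller degree the library labelled CON 3, was thus high in striatal and low in hippocampal neuron markers, and only CON 2 resembled the PQQ-L libraries in both. Results are given against all 3 CON libraries and, where this changes them, against CON 2 alone, a choice made after the values were seen. With CON 2 alone the CON group has 1 library, and its p-values assume that this library varies like those of the other groups.

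**Figure D1:**
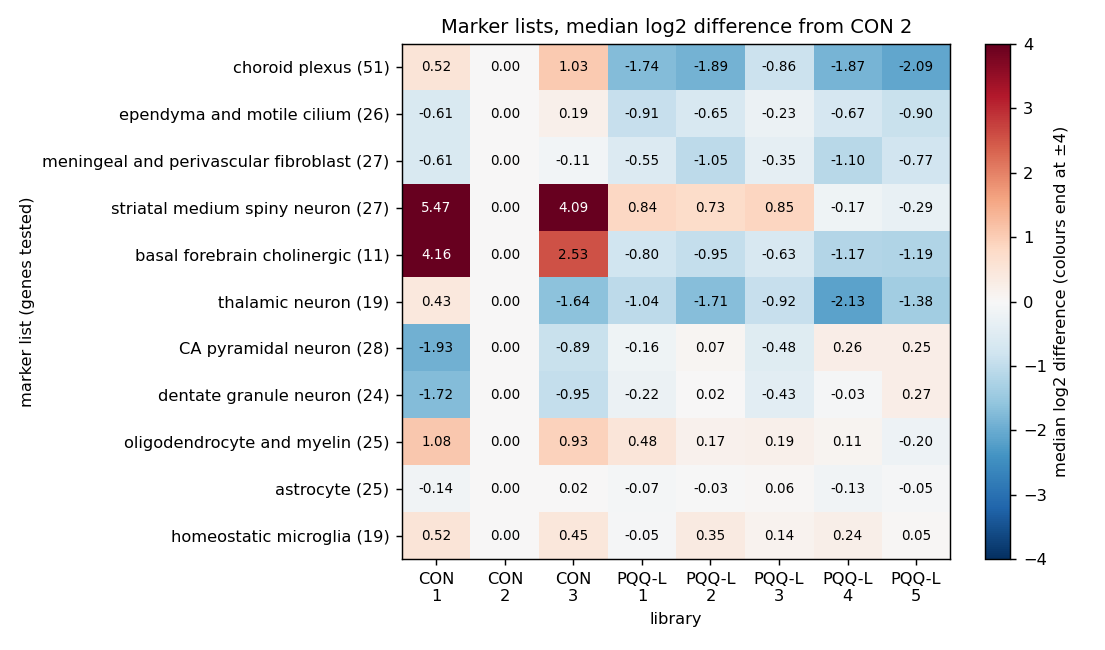
Median log2 difference from CON 2 over the genes of 11 marker lists (rows, with the number of genes tested) in each of the 8 libraries (columns), on log2(FPKM + 0.1). The striatal list stands at 5.47 in CON 1 and 4.09 in CON 3, the CA and dentate lists are lowest in the same 2 libraries, and the choroid plexus list is below 0 in all 5 PQQ-L libraries.

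Genes of the choroid plexus and a set of antigen presentation, interferon and matrix genes were lower in PQQ-L, and no gene was called higher. With limma, an adjusted p (Benjamini-Hochberg) below 0.05 and a |log2FC| above 1, 70 genes fell in PQQ-L (0.507% of the genes tested) and 0 rose (0%). Without the fold threshold 89 genes fell (0.645%) and 0 rose. Before adjustment, p was below 0.05 for 1614 genes lower (11.7%) and for 1234 higher (8.94%), so the count of 0 does not show that no gene was higher. A second tool, limma's voom on the read counts recovered from the FPKM, called 90 genes lower (0.652%) and 0 higher. The log2FC of the 70 genes ran from -5.80 to -1.12 with a median of -2.33, beside a median of -0.03 over all genes tested. For all 70 the 5 PQQ-L libraries lay below the 3 CON libraries, as they did for 7.75% of all genes tested. In 68 of the 70, CON 2 was the lowest CON library, and in 66 CON 3 was the highest. The median of the 70 genes was 0.69 higher in CON 1 than in CON 2 and 1.10 higher in CON 3 than in CON 2, on the log2 scale. With CON 2 as the only CON library, all 70 stayed below 0 with a median log2FC of -1.77, but the adjusted p of only 1, Pcolce, stayed under the threshold. Without CON 1 the count of called genes was 27, and without CON 3 it was 38 lower and 1 higher, 5330439K02Rik. Without CON 2, which leaves the 2 libraries high in striatal markers, it was 438 lower and 435 higher.

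**Figure D2:**
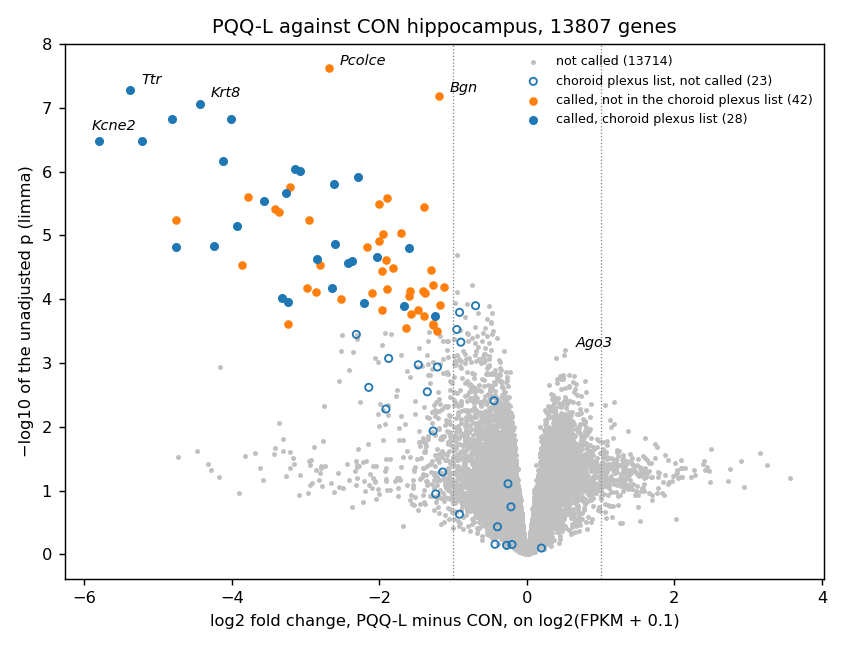
Log2 fold change of PQQ-L against CON (horizontal axis) and −log10 of the unadjusted limma p (vertical axis) for 13807 genes. Filled blue points are the 28 called genes of the choroid plexus list, orange points the other 42 called genes and open circles the 23 list members that were not called; dotted lines mark a log2FC of -1 and 1, and every called gene lies on the left.

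The choroid plexus list made up the largest share of the called genes. Of its 51 genes tested, 50 had a log2FC below 0, 28 were called lower (0.507% of all genes), and 39 did not overlap between the groups (7.75% of all genes). The median log2FC of the list was -2.14. It was -1.63 against CON 2 alone, where 51 of 51 were below 0. With an adjusted p below 0.05 as the only criterion, 31 genes of the list were lower. This count was 14 without CON 1, 39 without CON 2 and 15 without CON 3. Over all 13807 genes tested it was 89 with every library, 27 without CON 1, 1493 without CON 2 and 38 without CON 3. In bulk RNA, fewer choroid plexus cells and less RNA per cell cannot be told apart. The list was above 0 in every library, with a summed FPKM of 2529 to 7036 in CON and 719 to 787 in PQQ-L, but Atp5md, an ATP synthase subunit that all cells use, held most of the PQQ-L sum at 563, 493 and 579 in CON and 419, 482, 428, 435 and 518 in PQQ-L (adjusted p = 0.259). The CON library with the highest sum, CON 3, and the next, CON 1, were also those high in striatal markers, and the part of the dissection in the result was not tested.

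Ttr, which encodes transthyretin, the carrier of thyroid hormone and retinol in cerebrospinal fluid, had the highest level of the list. Its FPKM was 3615, 1499 and 5315 in CON 1, CON 2 and CON 3 and 81.9, 58.1, 95.1, 113 and 42.6 in PQQ-L 1 to 5. Every CON library was far above the highest PQQ-L library, PQQ-L 4. Ttr fell by 5.38 on the log2 scale (standard error 0.431, adjusted p = 2.96e-04). Enpp2, which encodes autotaxin, the enzyme that makes lysophosphatidic acid, was at 370.0, 236 and 486 in CON and at 98.7, 63.8, 75.9, 75.3 and 51.1 in PQQ-L, and fell by 2.29 (adjusted p = 0.00138). Other secreted products fell as well, and the next 3 were chosen after their values were seen. Ecrg4, which encodes the peptide precursor augurin, was at 49.4, 23.3 and 74.8 in CON and 1.88 to 4.66 in PQQ-L, and Igfbp2, an insulin-like growth factor carrier, was at 43.2, 31.5 and 63.7 and 8.04 to 23.5. Sostdc1, a secreted BMP and Wnt antagonist, was at 13.5, 8.70 and 17.9 and 1.16 to 2.56. For Igfbp2 the highest PQQ-L library was PQQ-L 3 at 23.5, which came close to CON 2. The call of Igfbp2 was lost without CON 1 (adjusted p = 0.155), CON 3 (0.139), PQQ-L 2, PQQ-L 4 or PQQ-L 5, and that of Sostdc1 without CON 1 (0.0692) or CON 3 (0.0658).

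Channels, transporters and junction proteins of the plexus epithelium included the gene with the largest fold change of all. Kcne2, a potassium channel subunit of the apical membrane, was at 9.82, 3.75 and 17.2 in the CON libraries and at 0, 0, 0.379, 0.0482 and 0.0331 in PQQ-L 1 to 5, with a log2FC of -5.80 (standard error 0.554, adjusted p = 5.71e-04). PQQ-L 1 and PQQ-L 2 had no Kcne2 read, and PQQ-L 3 was the highest of its group. Aqp1, the water channel of the same membrane, was at 6.22, 2.77 and 8.33 in CON and 0.373, 0.114, 0.304, 0.299 and 0.149 in PQQ-L, with a log2FC of -4.01 (standard error 0.356, adjusted p = 3.49e-04). Folr1, the folate receptor that carries folate into cerebrospinal fluid, was at 14.8, 6.63 and 25.4 in CON and at 0.403, 1.19, 1.55, 0.501 and 0.197 in PQQ-L, and fell by 4.25. Cldn3, a tight junction claudin, was at 2.34, 1.31 and 4.14 in CON and no higher than 0.199 in PQQ-L. The keratins of simple epithelia fell together. Krt18 was at 14.2, 6.38 and 25.3 in CON and 0.243 to 0.751 in PQQ-L, and Krt8, its partner in the same filament, was at 6.27, 3.47 and 11 and 0.0649 to 0.299 (log2FC -4.81 and -4.43). Steap1, a metalloreductase family member, was at 5.81, 2.47 and 9.99 in CON and 0 to 0.505 in PQQ-L, again with PQQ-L 3 as the highest. Folr1 and Steap1 kept their size but missed the threshold without CON 1 (adjusted p = 0.0587 and 0.0598) or CON 3 (0.0527 and 0.0553). Wfdc2, which encodes a secreted protease inhibitor, rested on 398 reads summed over the CON libraries and 2 over the PQQ-L libraries. This is a ratio of 362 after correction for depth, with an exact 95% interval of 99.4 to 3000 that covers counting error only.

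**Figure D3:**
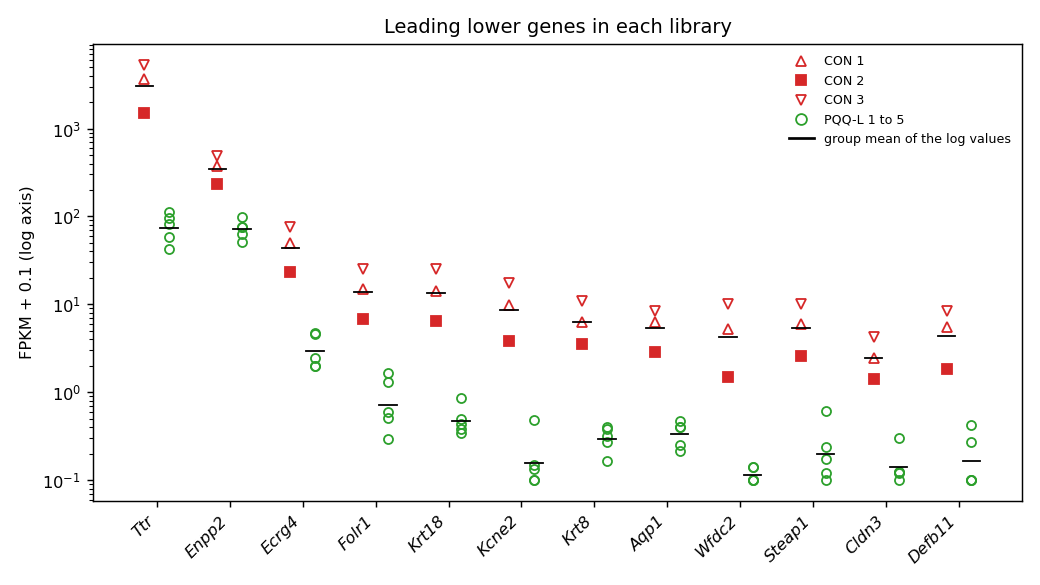
FPKM + 0.1 on a log axis for 12 genes called lower, in each CON library (red) and PQQ-L library (green circles), with black bars at the group means of the log values. CON 2 (filled square) is the lowest CON library for each of the 12 genes and lies above all 5 PQQ-L libraries.

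The members of the list that did not pass the test included genes with separate and with overlapping groups, and the 3 named here were chosen after their values were seen. Otx2, a transcription factor of the plexus epithelium, was at 1.68, 1.23 and 2.62 in CON and 0.299, 0.305, 0.827, 0.185 and 0.0723 in PQQ-L (log2FC -2.31, adjusted p = 0.0503), just short of the threshold. Kl, which encodes klotho and is made by the plexus and by neurons, was at 0.750, 13.1 and 27.4 and 8.83, 9.20, 1.73, 4.89 and 4.08, so that the groups overlapped (adjusted p = 0.798). Htr2c, the serotonin 2C receptor of the plexus and of neurons, was at 4.80, 13.8 and 18.4 and 12.6, 7.10, 20.9, 4.40 and 8.30 and overlapped too (adjusted p = 0.803). PQQ-L 3 had the highest level of the list among the PQQ-L libraries, with a median log2 difference from CON 2 of -0.86 against -2.09 to -1.74 in the other 4. The first letter of the library names, L or R, is not explained in the sources used here. Within the R libraries (CON 1 and PQQ-L 1 to 3) the median of the list was -1.81 and within the L libraries (CON 2, CON 3, PQQ-L 4 and PQQ-L 5) it was -2.43.

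The ependyma, which lines the ventricle beside the plexus, showed smaller differences. Of 26 genes of motile cilia and ependymal cells, 0 were called by limma. Voom with an adjusted p below 0.05 and no fold threshold gave 1. At an unadjusted p below 0.05, 10 were lower and 0 higher (11.7% and 8.94% of all genes tested). The median log2FC was -0.67 (-0.62 against CON 2 alone). As a median log2 difference from CON 2 the list stood at -0.61 in CON 1 and from -0.91 to -0.23 in PQQ-L, so that CON 1 lay within the PQQ-L range. Foxj1, the transcription factor that switches on motile cilia, was at 7.64, 7.27 and 10.00 in CON and 4.16, 3.65, 5.15, 3.79 and 2.79 in PQQ-L (log2FC -1.08, adjusted p = 0.103). Its groups did not overlap, and CON 2 was close to CON 1. Tekt1, a protein of ciliary microtubules, was at 2.67, 2.69 and 4.30 and 1.10, 1.07, 2.28, 1.75 and 1.12 (adjusted p = 0.197).

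Of 27 genes of meningeal and perivascular fibroblasts, 2 were called lower (0.507% of all genes), Bgn and Col1a1. Bgn, which encodes the matrix proteoglycan biglycan, had the smallest standard error of the 70 genes called. Its FPKM was 10.6, 9.48 and 11.3 in CON 1 to 3 and 4.54, 4.42, 4.82, 4.37 and 4.48 in PQQ-L 1 to 5, with a log2FC of -1.19 (standard error 0.0974, adjusted p = 2.96e-04) and of -1.05 against CON 2 alone. Col1a1, a chain of type I collagen, was at 1.29, 1.34 and 1.17 and 0.427, 0.420, 0.579, 0.302 and 0.652 and fell by 1.28 (adjusted p = 0.0181). Here CON 2 was the highest CON library, and the adjusted p was 0.113 without CON 1 and 0.0668 without CON 3. Col1a2, the partner chain, was at 2.43, 2.63 and 2.25 and 1.21, 0.818, 1.43, 1.11 and 1.43 and missed the threshold (log2FC -0.99, adjusted p = 0.0787). Mgp, a matrix protein of vessel walls, was at 40.5, 32.2 and 46.3 and 20.9, 21, 23, 16.4 and 17.9 (log2FC -0.99, adjusted p = 0.142). In all 4 genes the groups did not overlap, and the 3 CON libraries lay closer together than they did for the plexus genes. Of the 27 genes of the list, 22 were below 0 and 5 above. In 7 the PQQ-L libraries lay below all CON libraries, as they did for 7.75% of all genes tested. The median of the list was -0.33, and -0.77 against CON 2 alone. As a median log2 difference from CON 2, the list stood at -0.61 in CON 1, within the PQQ-L range of -1.10 to -0.35.

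Of the 70 called genes, 30 belonged to none of the gene lists, and those named in this paragraph were chosen after their values were seen, apart from Defb11. Pcolce, which encodes an enhancer of procollagen processing, had the smallest p of all genes. It was at 14.4, 8.98 and 18.8 in CON and 1.81, 2.21, 2.16, 2.01 and 1.90 in PQQ-L, with a log2FC of -2.68 (standard error 0.200, adjusted p = 2.96e-04). Its relative Pcolce2 was at 12.3, 6.96 and 13.2 and 2.68 to 4.80, and Col9a3, a chain of type IX collagen, at 11.1, 6.66 and 15.1 and 2.10 to 3.18. Several of the 30 encode transporters of ions and metabolites. Slc4a2, an anion exchanger, was at 13.3, 9.77 and 16.5 and 4.35 to 6.23, Slc16a8, a lactate transporter, at 1.41, 0.600 and 2.21 and 0.0457 to 0.123, and Slc39a4, a zinc importer, at 1.55, 0.882 and 2.09 and 0.202 to 0.444. Others encode enzymes, among them Inmt, which methylates indoleamines, at 4.71, 3.89 and 5.17 and 0.687 to 1.30, and the sulfotransferase gene Sult1c2 at 2.27, 1.01 and 3.67 and 0 to 0.190. The remaining examples are Defb11 and Cox8b. Defb11, a beta-defensin gene, was at 5.37, 1.75 and 8.29 in CON and at 0, 0, 0, 0.329 and 0.169 in PQQ-L. Cox8b, a subunit of cytochrome c oxidase best known from heart and muscle, was at 22, 8.64 and 31.8 and 0.919, 1.59, 1.54, 3.13 and 1.53. For the genes of this paragraph the order of the CON libraries was that of Ttr, with CON 3 highest and CON 2 lowest. Without CON 1 the adjusted p was 0.227 for Pcolce2, 0.0826 for Slc4a2 and 0.134 for Slc39a4, and without CON 3 it was 0.161, 0.0668 and 0.111. Pcolce2 also missed the threshold without PQQ-L 2, 3, 4 or 5 (0.0616 to 0.0956), and Slc39a4 without PQQ-L 5 (0.0561).

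MHC class II molecules show peptides to CD4+ T cells. In the brain they are made mainly by macrophages at its borders, in the plexus stroma and meninges, and by some activated microglia. Cd74, the invariant chain that guides class II molecules through the cell, was at 14.9, 9.17 and 18.6 in CON 1, CON 2 and CON 3 and at 1.67, 1.41, 2.19, 1.19 and 1.93 in PQQ-L 1 to 5, and fell by 2.98 (standard error 0.490, adjusted p = 0.0188). H2-Ab1, the beta chain of the I-A molecule, was at 4.98, 3.19 and 5.81 and 0.629, 0.439, 0.726, 0.286 and 0.737 and fell by 2.86 (adjusted p = 0.0198). H2-Aa, the alpha chain of the same molecule, was at 5.29, 3.41 and 6.35 and 0.468, 0.557, 1.41, 0.580 and 1.14 without passing the threshold (log2FC -2.52, adjusted p = 0.0715). H2-Eb1, the beta chain of I-E, was at 3.10, 1.54 and 4.12 and 0.566, 0.455, 0.937, 0.375 and 0.667 (log2FC -2.06, adjusted p = 0.0813). In all 4 genes the groups did not overlap and CON 2 was the lowest CON library. The calls of Cd74 and H2-Ab1 were lost without CON 1 (adjusted p = 0.133 and 0.145), CON 3 (0.111 and 0.111), PQQ-L 2 (0.0509 and 0.0557) or PQQ-L 4 (0.0594 and 0.0587). H2-DMb1, part of the peptide loading molecule and shown for its promoter, was at 2.32, 1.44 and 2.84 and 0.563 to 1.22 (adjusted p = 0.217). Of the 8 class II genes tested, 2 were called (0.507% of all genes) and the median log2FC was -1.60, or -0.95 against CON 2 alone. Ctss, a lysosomal protease that cleaves the invariant chain and is abundant in microglia, was at 106, 57.6 and 102 and 68.1 to 81 and overlapped. Of 19 homeostatic microglial genes, 0 were called by limma and 0 by voom. At an unadjusted p below 0.05, 1 was lower (11.7% of all genes tested). The median was -0.20 (0.15 against CON 2 alone). Of 7 border macrophage genes, 1 was called lower (0.507% of all genes), Cd74 itself. At the same unadjusted p, 3 of the 7 were lower, and their median was -0.38 (-0.27 against CON 2 alone).

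The promoters of class II genes share a control region with an inverted CCAAT box, called the Y box, and interferon-driven promoters carry repeats of GAAA. The stretch of 150 bases before the start of transcription is shown for 3 class II genes, with ATTGG or its complement CCAAT in capitals, and for Bst2 and B2m, with matches to GAAANNGAAA in capitals, as RefSeq gives them for GRCm38.p6, from 5′ to 3′ on the strand of the gene.
H2-Aa (chr17:34287824-34287973, minus strand): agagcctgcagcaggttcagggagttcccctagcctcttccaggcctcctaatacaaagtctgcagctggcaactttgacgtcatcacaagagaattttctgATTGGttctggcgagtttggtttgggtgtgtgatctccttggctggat
H2-Eb1 (chr17:34305717-34305866, plus strand): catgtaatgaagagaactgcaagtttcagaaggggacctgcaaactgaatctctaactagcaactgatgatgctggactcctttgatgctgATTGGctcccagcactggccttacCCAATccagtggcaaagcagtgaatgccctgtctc
H2-DMb1 (chr17:34153041-34153190, plus strand): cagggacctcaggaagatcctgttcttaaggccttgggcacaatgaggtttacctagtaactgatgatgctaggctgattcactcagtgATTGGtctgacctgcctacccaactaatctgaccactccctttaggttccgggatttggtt
Bst2 (chr8:71537473-71537622, minus strand): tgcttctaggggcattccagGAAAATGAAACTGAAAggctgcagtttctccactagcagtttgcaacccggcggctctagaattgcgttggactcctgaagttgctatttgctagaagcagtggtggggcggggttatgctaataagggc
B2m (chr2:122147537-122147686, plus strand): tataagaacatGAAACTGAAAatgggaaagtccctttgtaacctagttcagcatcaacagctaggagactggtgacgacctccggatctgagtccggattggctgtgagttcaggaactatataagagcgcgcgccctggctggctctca
These letters begin 48 bases before the start in H2-Aa, 59 in H2-Eb1 and 61 in H2-DMb1, and H2-Eb1 has a CCAAT at 35 as well. Both strands were searched. ATTGG or CCAAT is common, at 25.3% of the 27025 promoters in the same window and 27.4% of those of the genes tested. The 3 genes shown are the only ones with these letters among the 6 tested class II genes with a RefSeq promoter, and they were not called. The called genes Cd74 and H2-Ab1 had no promoter in the source used. The same letters are in 10 of the 15 tested MHC class I genes with a promoter, so they are not particular to class II. GAAANNGAAA or its complement TTTCNNTTTC is in 1.6% of all promoters and in 15 of the 31 tested interferon response genes with a promoter. Bst2 holds 2 overlapping matches, from 130 and 124 bases before the start. A match describes the letters and not the binding of a factor.

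Bst2, which encodes tetherin, a membrane protein that holds budding virus particles, was the interferon response gene with the smallest p. Its FPKM was 24.8, 12.4 and 35.6 in CON and 5.88, 6.19, 5.19, 6.09 and 5.19 in PQQ-L, and it fell by 1.95 (standard error 0.259, adjusted p = 0.0048). Ifi27l2a, a small mitochondrial protein induced by interferon, was at 10.4, 4.51 and 15.3 and 1.29, 1.04, 1.80, 1.58 and 1.86 and fell by 2.52 (adjusted p = 0.0233). Lgals3bp, a secreted galectin-binding glycoprotein, was at 23.7, 16.7 and 34.1 and 10.4, 10.0, 10.2, 7.81 and 7.51 and fell by 1.38 (adjusted p = 0.0199). For these 3 genes the PQQ-L libraries lay close together and CON 2 between them and the other CON libraries. Bst2 was called whichever single library was left out. Ifi27l2a was not called without CON 1 (adjusted p = 0.16), CON 3 (0.124) or any one of PQQ-L 1, 2, 4 and 5 (0.055 to 0.0701), nor Lgals3bp without CON 1 (0.133), CON 3 (0.0942), PQQ-L 4 (0.0644) or PQQ-L 5 (0.0616). Irf7, the master regulator of type I interferon genes, was at 3.78, 2.62 and 4.82 and 1.39, 1.22, 1.75, 1.47 and 1.20 (log2FC -1.32), and Ifitm3, a membrane protein that blocks virus entry, at 59.3, 29.3 and 76.7 and 14.2, 12, 15.6, 15.2 and 13.9 (log2FC -1.84), both with an adjusted p of 0.0503. Of the 38 genes of the list tested, 36 were below 0, 3 were called lower, 25 were lower and 0 higher at an unadjusted p below 0.05, and the median log2FC was -0.78. Of all genes tested 53.8% were below 0, 0.507% were called lower, and 11.7% were lower and 8.94% higher at that p. Against CON 2 alone the median was -0.23, with 31 of 38 below 0. In MHC class I, H2-Q4, a nonclassical heavy chain gene, was called lower (log2FC -1.27, adjusted p = 0.0418) and B2m, the light chain, was not, at 217, 132 and 249 in CON and 114, 116, 119, 114 and 96 in PQQ-L (log2FC -0.79, adjusted p = 0.142). The reads of H2-Q4 can be shared with its near-identical neighbours, so its own value is uncertain, and without any 1 library other than CON 2 its adjusted p was 0.0616 to 0.249.

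**Figure D4:**
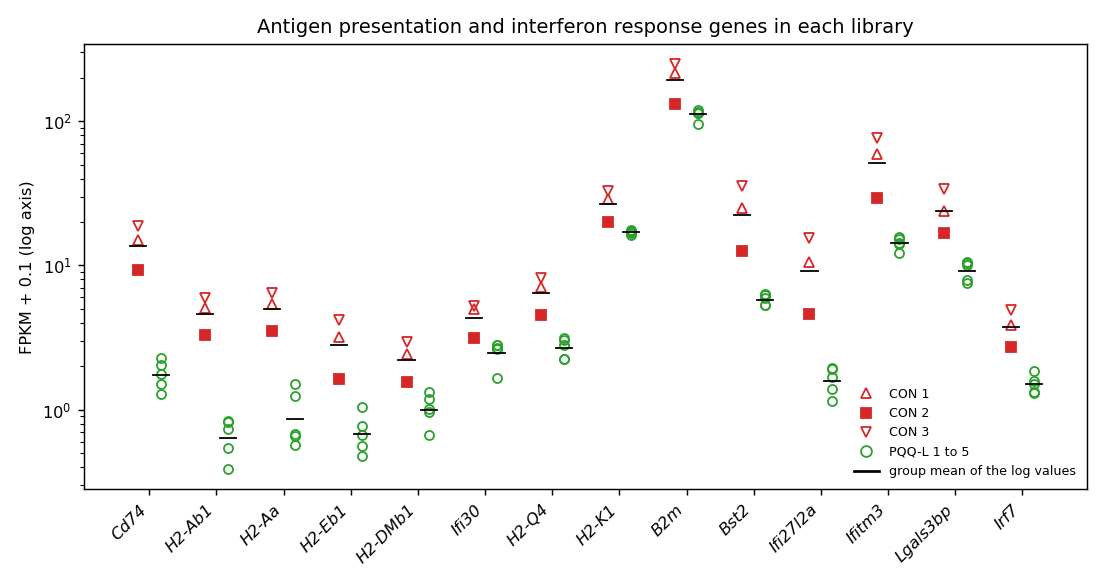
FPKM + 0.1 on a log axis for 14 genes of antigen presentation and the interferon response, in each CON library (red) and PQQ-L library (green circles), with black bars at the group means of the log values. For Cd74, H2-Ab1, Bst2, Ifi27l2a, Lgals3bp and H2-Q4, the called genes among them, CON 2 (filled square) lies between the other CON libraries and PQQ-L.

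Other immune, glial and vascular lists held few or no called genes. Of 19 genes of disease-associated microglia, 0 were called. Only 1, Cd63, a tetraspanin of late endosomes, had an adjusted p below 0.05, with a fold under the threshold. Voom gave 2 at that adjusted p. At an unadjusted p below 0.05, 11 of the 19 were lower (11.7% of all genes tested). Cd63 was at 85, 63.4 and 99.6 in CON and 44.6, 48.9, 50.1, 43.5 and 45.2 in PQQ-L (log2FC -0.81, adjusted p = 0.0258). The next examples are lysosomal proteases, with the same order of libraries. Ctsl was at 41, 33.6 and 45.4 and 28.5, 26.7, 27.6, 25.8 and 25.2 (log2FC -0.57, adjusted p = 0.0461) and Ctsd at 313, 246 and 358 and 211, 227, 222, 212 and 187 (log2FC -0.51, adjusted p = 0.0878). Ctsl missed an adjusted p of 0.05 without any 1 library other than CON 2 (0.0763 to 0.249) and under median-of-ratios scaling (0.0599), and Cd63 without CON 1 (0.166), CON 3 (0.124) or any one of PQQ-L 1, 2, 4 and 5 (0.0561 to 0.0801). Of 15 complement genes, 0 were called by limma and 0 by voom. At an unadjusted p below 0.05, 5 were lower (11.7% of all genes tested). Cd59a, which blocks the final membrane attack complex, was at 13.4, 5.69 and 13 and 3.01, 3.19, 2.97, 1.79 and 1.49 (log2FC -2.02, adjusted p = 0.0842), while C1qb, a microglial chain of C1q, was at 98.4, 47.8 and 86.9 and 44.5 to 61.8 and overlapped. Vim, an intermediate filament of astrocytes, ependyma and vessels, was at 48.6, 37.6 and 48.4 and 23.1, 24.8, 26.2, 32.2 and 26.2 (log2FC -0.76, adjusted p = 0.156), with no overlap. The medians were 0.03 over 25 astrocyte genes, -0.22 over 25 endothelial genes and -0.29 over 15 mural cell genes. Against CON 2 alone these medians were -0.05, 0.03 and 0.04. Over 25 myelin genes the median was -0.53, and 0.15 against CON 2 alone. Trf, transferrin made by oligodendrocytes and by the plexus, was at 456, 176 and 405 in CON and 133 to 229.8 in PQQ-L, with CON 2 inside the PQQ-L range.

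Genes of neighbouring brain regions had large fold changes that did not pass the test. All 27 striatal genes were below 0 with a median log2FC of -2.77, yet 0 were called by limma and 0 by voom. At an unadjusted p below 0.05, 6 were lower (11.7% of all genes tested). Drd2, the D2 dopamine receptor, was at 110.0, 0.855 and 42.8 in CON and 1.46, 1.60, 2.28, 0.144 and 0.149 in PQQ-L (log2FC -4.32, standard error 1.85, adjusted p = 0.235). The spread within CON was larger than the difference between the groups, and against CON 2 alone the striatal median was 0.39, above 0. Without CON 2 it was -4.48, and 22 of the 27 were lower at an adjusted p below 0.05. Of all 13807 genes tested, 1493 were lower at that p without CON 2. CON 1 and CON 3 had been singled out by striatal markers, so the 22 are no separate test of striatal genes. Cholinergic genes of the basal forebrain had the same library order. Chat, the enzyme that makes acetylcholine, was at 7.80, 0.0960 and 1.63 in CON and no higher than 0.0104 in PQQ-L (adjusted p = 0.23). Even CON 2, the lowest CON library, was above all 5 PQQ-L libraries. Of 11 cholinergic genes 0 were called by limma and 0 by voom. At an unadjusted p below 0.05, 8 were lower (11.7% of all genes tested). The median of the cholinergic genes was -2.85, or -0.86 against CON 2 alone. Lhx8, a transcription factor of these neurons, rested on 9 to 327 reads in the CON libraries and on none in PQQ-L, at least 257-fold lower when 3 reads over the PQQ-L group are taken as the floor. CON 1 held 327 of its 424 reads, and without CON 1 the bound was 91.8-fold.

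Thalamic genes separated the CON libraries in another way. Tnnt1, a troponin that marks thalamic relay neurons in brain, was at 14.3, 6.71 and 1.33 in CON 1, CON 2 and CON 3 and at 0.950, 1.34, 1.09, 0.555 and 0.667 in PQQ-L (log2FC -2.41, adjusted p = 0.099). Tcf7l2, a transcription factor of the same neurons, was at 13.6, 5.53 and 1.02 and 1.25, 1.08, 1.22, 0.626 and 0.907 (adjusted p = 0.184). CON 1 and CON 2 were high for both genes, while CON 3 lay at the level of PQQ-L. Of 19 thalamic genes, 0 were called by limma and 0 by voom. At an unadjusted p below 0.05, 11 were lower and 1 higher (11.7% and 8.94% of all genes tested). The median was -1.13 (-1.23 against CON 2 alone). Without CON 3, 6 of the 19 were lower at an adjusted p below 0.05, among them Tnnt1 (0.00299) and Tcf7l2 (0.00776). Of all 13807 genes tested, 38 were lower at that p without CON 3. As CON 3 was the CON library at the PQQ-L level, the 6 are no separate test of thalamic genes.

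Most genes of hippocampal neurons and synapses had a log2FC above 0, and none passed the threshold. For 28 genes of CA pyramidal neurons the median log2FC was 0.88 with 0 called by limma and 0 by voom, and 8 were higher and 1 lower at an unadjusted p below 0.05 (8.94% and 11.7% of all genes tested). The lower one was Pcp4, a calmodulin-binding protein of CA2 and also of the striatum, at 2098, 355 and 856 in CON and 333, 314, 361, 139 and 122 in PQQ-L, and it made the summed FPKM of the list highest in CON 1. For 24 dentate granule genes the median was 0.84 with 0 called by either tool and 5 higher and 1 lower at that p. Against CON 2 alone the medians were -0.03 and -0.15. Zbtb20, a transcription factor of CA1 neurons, was at 1.01, 4.52 and 2.40 in CON and 4.77, 5.13, 3.70, 5.42 and 5.69 in PQQ-L (log2FC 1.09, standard error 0.447, adjusted p = 0.233), so that CON 2 fell inside the PQQ-L range. The receptors of fast transmission followed. Gria2, the AMPA receptor subunit that limits calcium entry, was at 15.3, 45.1 and 27.7 and 44.6, 47.2, 43.5, 51.5 and 58.7 (log2FC 0.87, adjusted p = 0.217), and Gabra2, a GABA-A receptor subunit, at 3.48, 8.89 and 5.41 and 8.14, 9.24, 10.2, 9.29 and 12.8 (log2FC 0.82, adjusted p = 0.215). The medians were 0.35 over 22 glutamate receptor genes and 0.53 over 12 GABA-A receptor genes, and -0.09 and -0.05 against CON 2 alone. Among 39 genes of synaptic vesicles and the postsynaptic density, Rims1, a scaffold of the active zone, was the only one whose groups did not overlap, at 11.9, 16.3 and 13.1 and 17.9, 16.5, 20.3, 21.2 and 17.6 (log2FC 0.44, adjusted p = 0.167). The activity-dependent gene Ptgs2, which encodes cyclooxygenase-2, was at 0.218, 3.25 and 1.34 and 3.06, 4.65, 2.49, 5.63 and 5.95 (adjusted p = 0.231). Gadd45g, another immediate early gene, differed in the other direction, at 13.8, 12.3 and 15.3 and 9.23, 11.8, 9.61, 9.81 and 8.86 (log2FC -0.48, adjusted p = 0.0712), with no overlap.

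The genes with the smallest p among those higher in PQQ-L had changes of less than 2-fold. Ago3, an Argonaute protein that carries small RNAs, was at 1.35, 1.67 and 1.69 in CON and 2.30, 2.20, 2.35, 2.46 and 2.11 in PQQ-L (log2FC 0.52, standard error 0.112, adjusted p = 0.0715), the lowest adjusted p of any higher gene. Purg, a purine-rich element binding protein gene, was at 3.28, 4.25 and 3.65 and 5.01, 4.77, 5.38, 5.41 and 6.10, and Pnisr, which encodes a serine-rich splicing-related protein, at 9.34, 10.6 and 11.2 and 13.2, 12.5, 14.9, 14.2 and 13.8. In each of these 3 the lowest PQQ-L library was above the highest CON library, as for 2.96% of all genes tested. The other 7 of the 10 leading genes, Kctd16, Naa30, Slitrk2, Mtf2, Abca8b, Celsr3 and Fam76b, had a log2FC of 0.41 to 0.63 and an adjusted p of 0.105 to 0.113. Among 50 genes of chromatin and RNA processing, 0 were called by limma and 0 by voom. At an unadjusted p below 0.05, 16 were higher and 0 lower (8.94% and 11.7% of all genes tested). In 7 the PQQ-L libraries lay above all CON libraries. Meg3, a long noncoding RNA of neurons, was at 33.8, 27.8 and 35.6 and 42.1, 41, 69.5, 53.8 and 46.4 (log2FC 0.62, adjusted p = 0.119). Malat1, a nuclear noncoding RNA, was at 13.9, 18.1 and 24 and 31.4, 22.8, 32, 27.7 and 28.1 (adjusted p = 0.164). The median of the list was 0.23, and -0.03 against CON 2 alone, where 26 of the 50 were below 0. Meg3 and Malat1 stayed above 0 there, with a log2FC of 0.83 and 0.64. The 10 leading higher genes had a log2FC of 0.31 to 0.43 against CON 2 alone.

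The sign of the difference moved with gene length. Lengths were those implied by the FPKM of 1 read. The median log2FC was -0.29 over 899 genes under 1000 bases, -0.16 over 2283 genes of 1000 to 2000 bases, -0.07 over 4473 of 2000 to 4000, 0.06 over 4193 of 4000 to 8000 and 0.20 over 1956 above 8000. Against CON 2 alone the same 5 medians lay between -0.06 and -0.03. The cytosolic ribosomal proteins, whose genes are short, had the pattern of the short class. All 79 were below 0 with a median of -0.40, and 0 were called by limma and 0 by voom. At an unadjusted p below 0.05, 22 were lower (11.7% of all genes tested). Rps27a, a ubiquitin fusion that gives a small subunit protein, was at 369.5, 235 and 348 in CON and 214, 254, 219.5, 184 and 187 in PQQ-L (log2FC -0.57, adjusted p = 0.154). CON 2 lay within the PQQ-L range, and the median of the 79 against CON 2 alone was 0.08.

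**Figure D5:**
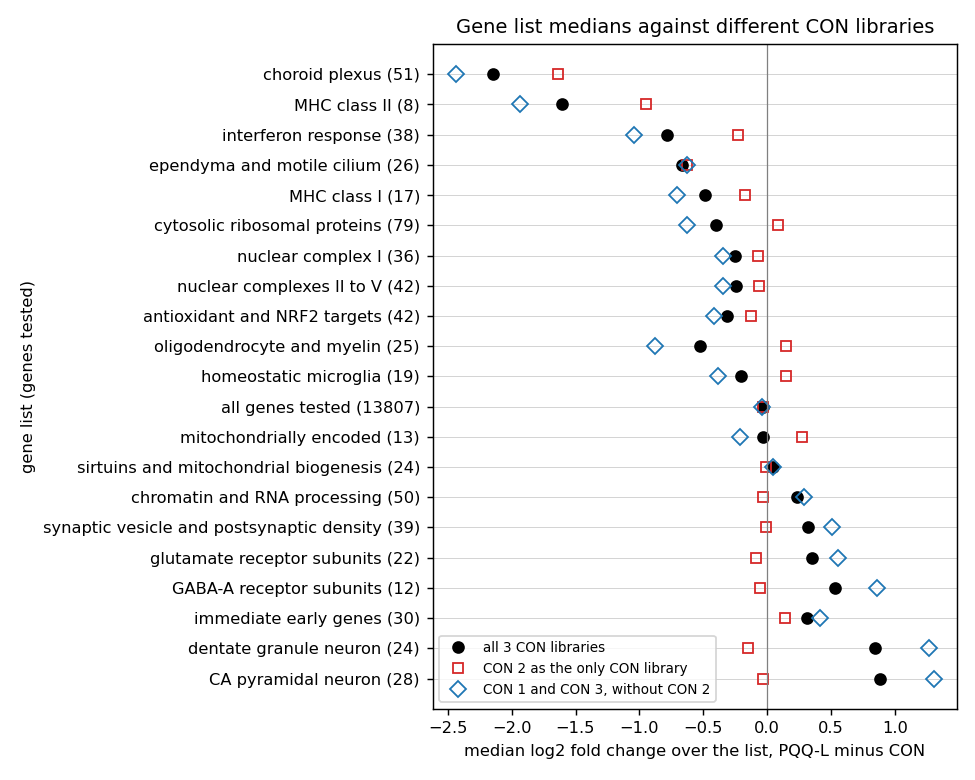
Median log2 fold change of PQQ-L against CON over 20 gene lists and all genes tested (rows, with the number of genes tested), with all 3 CON libraries (black circles), CON 2 alone (red squares) and CON 1 with CON 3 (blue diamonds). Against CON 2 alone the choroid plexus, MHC class II and ependymal medians stay at -1.63, -0.95 and -0.62, while those of the CA, dentate, synaptic, myelin and ribosomal lists lie between -0.15 and 0.15.

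PQQ is studied mainly for its action on mitochondria and redox balance. All 36 nuclear genes of complex I tested were below 0 with a median log2FC of -0.25, and all 42 of complexes II to V with a median of -0.24. Cox8b, the called subunit described above, is not in the list of complexes II to V. In both lists 0 were called by limma and 0 by voom. At an unadjusted p below 0.05, 17 and 22 were lower (11.7% of all genes tested). Ndufs6, a subunit of complex I, was at 145, 111 and 136 in CON and 100.3, 99.8, 97.4, 89.9 and 82.7 in PQQ-L (log2FC -0.47, adjusted p = 0.153), and Atp5g1, a subunit of the ATP synthase ring, was at 143, 130.3 and 157 and 118, 122, 106, 112 and 102 (log2FC -0.36, adjusted p = 0.116). In both genes the groups did not overlap. Against CON 2 alone both medians were -0.07. The 13 mitochondrially encoded genes had a median of -0.04, with 9 below 0. Against CON 2 alone the median was 0.27, with 0 of 13 below 0, and without CON 2 it was -0.21. The lowest adjusted p among them was 0.261, for ND3, a subunit of complex I. ND3 was at 119, 114 and 116 in CON and 123, 111, 159, 136 and 153 in PQQ-L.

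Ucp2, an uncoupling protein of the inner mitochondrial membrane, was at 32.6, 21.6 and 37.9 in CON 1, CON 2 and CON 3 and at 11.7, 12.1, 14.4, 10.8 and 8.37 in PQQ-L 1 to 5. It fell by 1.39 on the log2 scale (standard error 0.257, adjusted p = 0.0336), with a log2FC of -0.93 against CON 2 alone. The call was lost without CON 1 (adjusted p = 0.217), CON 3 (0.167) or any one of PQQ-L 1, 2, 4 and 5 (0.0699 to 0.0954). Slc25a5, an adenine nucleotide carrier, was at 243, 209 and 222 and 164 to 198 and was not called (adjusted p = 0.189). Sirt1, an NAD-dependent deacetylase that the study ties to Ucp2, was at 2.57, 3.04 and 2.77 and 3.65, 3.11, 3.67, 3.44 and 3.81. The groups did not overlap, but the log2FC of 0.33 (standard error 0.0948) had an adjusted p of 0.171. Against CON 2 alone the log2FC of Sirt1 was 0.21. Esrra, a nuclear receptor that drives mitochondrial genes, was at 32.5, 23.3 and 25.8 and 22.5, 22, 19.8, 18 and 20.0 (log2FC -0.40, adjusted p = 0.185). Ppargc1a, the coactivator PGC-1alpha, named after its values were seen, was at 2.03, 3.61 and 2.61 and 2.95 to 3.79 and overlapped. The median over 24 genes of sirtuins and mitochondrial biogenesis was 0.04, with 0 called by limma and 0 by voom. At an unadjusted p below 0.05, 2 were lower and 3 higher (11.7% and 8.94% of all genes tested).

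Of 42 antioxidant genes, 38 were below 0, 2 were called lower and 16 were lower at an unadjusted p below 0.05, beside 53.8%, 0.507% and 11.7% of all genes tested. Gpx8, a glutathione peroxidase of the endoplasmic reticulum, was at 9.83, 5.95 and 13.6 in CON and 2.73, 1.95, 2.37, 1.98 and 2.18 in PQQ-L and fell by 2.01 (standard error 0.276, adjusted p = 0.00605). Gstm2, a glutathione transferase, was at 4.59, 3.17 and 5.97 and 1.67, 0.813, 1.22, 1.10 and 1.28 and fell by 1.82 (adjusted p = 0.0105). Without CON 1 the adjusted p was 0.0532 for Gpx8 and 0.0819 for Gstm2, and without CON 3 that of Gstm2 was 0.0674. Nqo1, a quinone reductase and a common NRF2 target, was at 3.34, 2.14 and 4.13 and 1.75, 1.51, 1.47, 1.42 and 1.49 (log2FC -0.98, adjusted p = 0.0891). Txn1, thioredoxin, was at 72.2, 61.8 and 54.1 and 48.3, 49.9, 49.8, 46.2 and 48.9 (log2FC -0.36, adjusted p = 0.119). Neither of the latter overlapped between the groups. The median of the list was -0.32, and -0.13 against CON 2 alone.

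From a list of 18 genes taken from the study's text, 15 were tested. Of these, 5 were called lower (0.507% of all genes), Cd74, Gstm2, H2-Ab1, Lgals3bp and Ucp2. Apart from Sirt1, the tested genes come from a set that the study reports as lower in both PQQ groups. They were thus chosen by their direction on the same libraries, and they are not independent evidence of a direction. Lgals3, a galectin of activated macrophages, was at 3.80, 1.99 and 5.61 and 0.573, 0.894, 0.715, 0.344 and 0.313 (log2FC -2.51, adjusted p = 0.0511). Tgtp1, an interferon-induced GTPase, was at 1.23, 0.612 and 1.74 and 0.287, 0.214, 0.139, 0.435 and 0.104 (log2FC -1.93, adjusted p = 0.0503). Scx, a transcription factor of tendon and fibroblasts, was at 2.08, 1.14 and 1.05 and 0.278, 0.376, 0.506, 0.551 and 0.421 (log2FC -1.49, adjusted p = 0.0924). Sfrp5, a secreted Wnt antagonist, was at 6.05, 1.79 and 2.92 and 0.746, 0.427, 1.18, 0.194 and 0.231 (log2FC -2.55, adjusted p = 0.116). Rtp4, an interferon-induced chaperone, was at 3.01, 1.19 and 4.00 and 0.953 to 1.48, with CON 2 inside the reach of PQQ-L (adjusted p = 0.19). Tgfbi, a matrix protein induced by TGF-beta, was the one gene called in a list of 30 Wnt, BMP and TGF-beta genes, at 3.07, 2.45 and 3.67 and 1.11, 1.39, 1.58, 0.900 and 1.07 (log2FC -1.28, adjusted p = 0.0421). Its adjusted p was 0.0699 to 0.225 without CON 1, CON 3 or any one of PQQ-L 1, 2, 4 and 5.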

How the data were processed

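Total RNA of 12 samples labelled as hippocampus was extracted with TRIzol. The libraries were made with the VAHTS Universal V10 kit and sequenced on an Illumina NovaSeq. The authors trimmed reads with fastp, aligned them with HISAT2, counted them with HTSeq-count and deposited FPKM, with mm39 as the build in the submitters' processing notes. Each of the 8 CON and PQQ-L libraries had at least 29654553 reads on genes. Here log2(FPKM + 0.1) was fitted, for genes whose FPKM averaged 0.5 or more over the 8 CON and PQQ-L libraries, with limma 3.58.1 (R 4.3.3, eBayes with a trend). All 12 libraries gave the spread, the 4 PQQ-H libraries (10 mg/kg/day) among them, and p-values were adjusted over 13807 genes by the Benjamini-Hochberg method. A fold change on this scale understates the change of low genes. Whole reads were recovered from the FPKM steps for 100% of 25563 genes (within 0.02 reads) for voom and for intervals, which are exact binomial and cover counting error only. Sets of replicates were compared by chi-square, and none of 13 pairs was a copy of the other. Named genes were the 10 leading genes in each direction, up to 4 of the smallest p in each gene list, the 3 with the highest FPKM in each cell type list and the genes taken from the study's text, and the report gives part of them. Prox1, C1ql2, Spink8, Drd1 and H2-DMb1 were added after their values were seen, as were the genes so described in the report. The members and lists were chosen with earlier results of these data known. Alternatives were other pseudocounts, filters, scalings, covariates and weights, voom, and each library left out.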

Additional observations from a re-analysis of the deposited data

Results flagged for a closer look

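Among the genes named, 102 were tested for 1 library standing apart from the other 4 of the PQQ-L group on the log2(FPKM + 0.1) scale, by a Dixon gap above 0.71 of the range. Chance flags about 1 in 20 such groups, and 4 of the 102 passed. In PQQ-L 3, Kcne2 was at 0.379 and Cldn3 at 0.199, both above the other 4 libraries of the group, and the same library had the highest choroid plexus median of the 5. In PQQ-L 5, B2m was at 95.987, below the other 4. In PQQ-L 2, Chat was at 0 where the other 4 libraries had 1 read each, so this rests on single reads.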

How the results depend on the processing

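Under the pseudocounts 1 and 0.01, a mean FPKM of at least 1, the 8 libraries alone, median-of-ratios or quantile scaling, the name letter as covariate, robust empirical Bayes and voom, the genes called lower numbered 56 to 90 and those called higher 0. Without a filter 115 genes were called lower, with the replicate block 23, with array quality weights (whose iteration stopped before convergence) 21 and with CON 2 as the only CON library 1. Leaving out single libraries gave 27 to 438 genes lower and 0 to 435 higher. Of the 70 genes, 27 were called again without CON 1, 30 without CON 3 and 70 without CON 2. Of the 435 higher genes called without CON 2, CON 2 was at or above the lowest PQQ-L library in 425. At an adjusted p below 0.05 with no fold threshold, 135 genes were lower with a pseudocount of 1, 155 without a filter, 23 with the replicate block, 21 with array quality weights and 1 with CON 2 alone, and leaving out single libraries gave 27 to 1493. The genes higher at that p numbered 1 without a filter, 2 with quantile scaling, 2 with voom and 0 to 1740 with single libraries left out. Same-numbered libraries deviated together with correlations of -0.057 to 0.222, so the numbers were not taken as pairs. The sign turned with CON 2 as the only CON library, an alternative chosen after the values were seen, for C1qb (0.15), Ctss (0.35), Trf (0.084), Drd1 (0.39), Ppp1r1b (0.49), C1ql2 (-0.32), Prox1 (-0.34), Spink8 (-0.28) and Ppargc1a (-0.16). It turned for Htr2c with the replicate block (0.018) and for Kl with array quality weights (0.54). With single libraries left out, Htr2c ranged from -0.77 to 0.19 and Kl from -1.93 to 0.58. With 2 of the 3 CON libraries high in striatal markers, treatment and dissected region cannot be told apart. This includes genes that are alike in the 3 CON libraries, since a dissection difference shared by all 3 would go with the group. CON 2 too lay above all PQQ-L libraries for the thalamic gene Tnnt1, at 6.71 against 0.555 to 1.34.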
